A study of Caenorhabditis elegans with 4 samples.

Results

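NFYA-1 left 444 stretches of 50 kb or more without a single peak in late embryos of the nematode Caenorhabditis elegans, and together they made up 37.0 Mb, or 37.1% of the mapped span. Peaks were taken from ChIP-seq (chromatin immunoprecipitation followed by sequencing) with an antibody against the green fluorescent protein (GFP) tag on NFYA-1. The rows of 3 peak lists, 1 for each ChIP replicate and 1 called combined, were pooled, and intervals that shared at least 1 bp were joined. The 11546 rows gave 5406 joined intervals with 5400 gaps between neighbours on the 6 chromosomes, and a gap of 50000 bp or more is called a long gap here. The 444 long gaps were 8.22% of all gaps. The stretches were selected on the measured peak positions, so their number, length and position are descriptions, and no test was made on them. The span of a chromosome ran from its first to its last joined interval, and the ends outside it were left out.

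Every library came from hermaphrodites of strain OP404, which carried the unc-119(ed3) mutation on chromosome III and the transgene wgIs404. The transgene was introduced by bombardment, encodes nfya-1::TY1-GFP-3xFLA and also supplies unc-119(+). The series holds 4 samples, 2 of ChIP with anti-GFP antibodies and 2 of input DNA, all from worms grown at 20 °C and crosslinked with 2% formaldehyde. ChIP and input libraries share the genotype, stage and treatment, so there is no untagged strain among them, and the labels give neither the insertion site of the transgene nor whether separate cultures were used for the replicates. The authors deposited 1 value of strength per peak, a q-value (p-value after correction for many tests). Sequencing depth is unknown, since read counts and input values were not analysed here, and a long gap means that no interval passed the authors' threshold in the lists used here, not that NFYA-1 was absent.

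NFYA-1 is the worm counterpart of the A subunit of NF-Y, a complex of A, B and C subunits known for binding CCAAT boxes in promoters. The A subunit makes the contact with the CCAAT sequence, and the B and C subunits form a pair with a histone-like fold. In C. elegans the autosomes are known to have gene-dense centres and arms that recombine more often, hold more repeats and carry more of the silencing mark on lysine 9 of histone H3. The arms of chromosome V are known for large families of chemoreceptor genes, and the X chromosome lacks this strong division into arms and centre. Gene annotation and genome sequence in WS180, the build of the peak lists, were not used here, so no gap was assigned to genes, repeats or mappable sequence, and the part of these in the gaps was not tested.

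Most long gaps were not far above the threshold. Their median length was 71.4 kb, with quartiles of 58.0 and 94.3 kb, where the median over all 5400 gaps was 9.09 kb. Of the 444, 252 were under 75 kb, 97 ran from 75 to under 100 kb, 68 from 100 to under 150 kb, 19 from 150 to under 200 kb and 8 were 200 kb or more. The long tail carried much of the sequence, since the 95 gaps of 100 kb or more held 13.4 Mb. At the threshold, the 3 shortest members were 50028 bp on V, 50076 bp on X and 50100 bp on III. The 3 longest gaps outside it were 49992 bp on IV and 49966 and 49956 bp on II, so lengths run on without a break across the threshold.

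The longest stretches without NFYA-1 intervals lay on chromosome V. Of the 8 gaps of 200 kb or more, 6 were on V, 1 on IV and 1 on X. The longest of all ran over V:18130525-18490383 in build WS180, 359.86 kb near the right end. Each list taken alone gave nearly the same stretch, which was 359.872 kb long in the combined list and 359.870 and 359.91 kb long in replicates 1 and 2. The intervals on both of its sides were found in all 3 lists, the left one with a combined q of 2.77e-12 and the right one with 1.35e-20.

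The next gaps in order also sat on the right arm of V. The second in length was V:16966113-17277180 (311.1 kb), and in the replicate 1 list alone it was part of a gap of 531.9 kb, the longest of any single list. Its right side was set by an interval of the combined list and replicate 2 that replicate 1 lacks (q of 9.16e-07 in replicate 2). After it came V:17550319-17857770 (307.5 kb). It ended at a strong interval with a combined q of 3.50e-72, and began at a weak one of the combined list alone with a q of 7.32e-07. Without it and 2 more intervals of the combined list alone, the stretch in the replicate lists was 359.5 kb.

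The left arm of V had a second group. The 4th longest gap was V:2285509-2567513 (282.0 kb), and both of its ends were weak intervals, with q-values of 0.000162 in replicate 2 on the left and 5.68e-05 in the combined list on the right. Further along, V:2803692-3006577 (202.9 kb) and V:3006846-3193140 (186.3 kb), the 8th and 10th in length, were split by 1 combined interval of 268 bp with a q of 0.000179. Neither replicate held a peak there, and the replicate lists together had 1 gap of 391.4 kb in this place. The 7th, V:15191288-15395351 (204.1 kb), was likewise cut short by a combined interval with a q of 0.000179, and measured 250.3 kb without it.

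On the other chromosomes the leading gaps were shorter. Chromosome IV had IV:4810700-5076360 (265.7 kb), the 5th in length, which was 267.278 kb in replicate 1 alone and 267.25 kb in replicate 2 alone. Chromosome X had X:1627351-1837726 (210.4 kb), the 6th, next to an interval with a combined q of 3.70e-42. Chromosome II had II:1845149-2035528 (190.4 kb), the 9th. The longest of chromosome I was I:12242479-12427830 (185.4 kb), and that of chromosome III was III:1300473-1418687 with 118.2 kb. The longest gap of III was thus shorter than the longest of every other chromosome, and those of I, II and III lay in the outer parts of their spans.

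**Figure D1:**
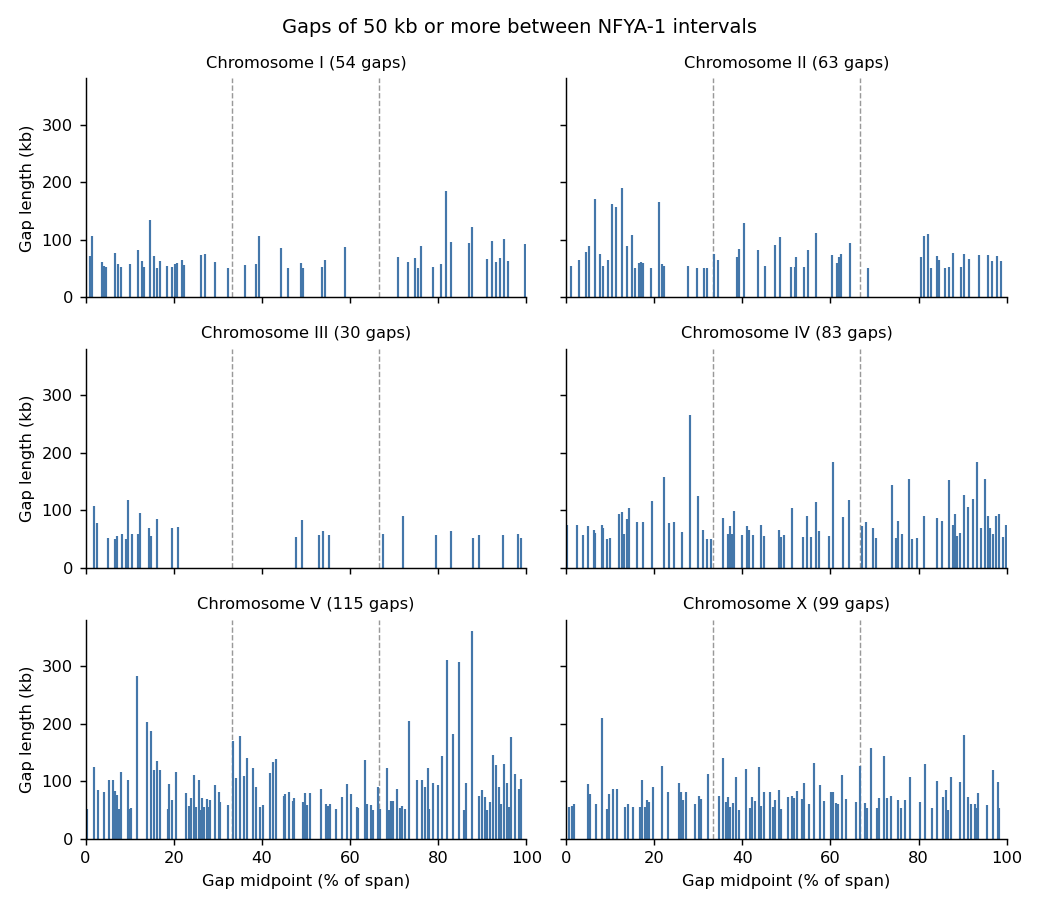
Each vertical line is 1 of the 444 long gaps, placed by its midpoint (x axis, percent of the chromosome's span) with its length (y axis, kb), and dashed lines cut the span into 3 equal parts. The tallest lines stand on chromosome V, up to 359.86 kb, and chromosome III has 30 gaps with none above 118.2 kb.

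Chromosomes differed in how much of their span lay in long gaps. Chromosome V had 115 long gaps over 11.2 Mb, 53.6% of its span. X had 99 over 7.96 Mb (46.0%) and IV had 83 over 7.04 Mb (40.4%). The other autosomes had less, with 63 gaps and 32.2% on II, 54 gaps and 25.8% on I and 30 gaps and 14.6% on III. Per gap, 13.5% of the gaps of V and 13.8% of those of X were long, against 9.57% on IV, 7.15% on II, 5.87% on I and 2.59% on III.

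V and X had almost equal densities of joined intervals, 41.0 and 41.6 per Mb, but not the same gaps. V had 40 gaps of 100 kb or more and X had 19, and 44.9% of all sequence in gaps of that size was on V. The median long gap was 81.7 kb on V and 71.8 kb on X. The median over all gaps went the other way, with 10.1 kb on V and 13.1 kb on X. Compared with X, V thus had a shorter median gap and a longer median long gap. The standard deviation of all gap lengths was 1.55 times their mean on V and 1.19 times on X.

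The first interval of X began at position 324045, whereas on the autosomes it began between 1391 on II and 51116 on IV. The stretch before it is not a member, because ends outside the first and last interval were left out.

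The rule for these stretches sets them beside a random placement of intervals. A formula gave this reference without drawing any placement: with the intervals of a chromosome spread uniformly over its span, it gives the expected number, summed length and longest of the gaps. No p-value was computed. The formula gave 360.3 ± 12.2 long gaps (SD from the formula) where 444 were counted, a ratio of 1.23. It put 25.6% of the span in long gaps, where 37.1% was measured.

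By chromosome, the count was 30 beside 14.7 ± 3.31 on III, 63 beside 45.7 ± 4.75 on II and 54 beside 39.8 ± 4.60 on I. It was 83 beside 67.8 ± 5.30 on IV, 99 beside 86.1 ± 5.42 on X and 115 beside 106.2 ± 5.97 on V. Every chromosome was above its formula value with these intervals, III by the largest ratio (2.04) and V by the smallest (1.08). This did not hold in single replicates at 50000 bp. In replicate 1 alone the ratio over all chromosomes was 0.952, with II (0.974), IV (0.929), V (0.832) and X (0.970) below 1. In replicate 2 alone I (0.986), II (0.989), V (0.909) and X (0.998) were below 1. The order depends on the threshold, since 50000 bp is a larger multiple of the mean gap on III (11.5 kb) than on V (24.0 kb). A threshold of 3 mean gaps of each chromosome was chosen after seeing the data. With it V had the largest pooled ratio (1.65), III had 1.39 and I the smallest (1.31). All chromosomes were then above 1 in replicate 1 alone (1.12 to 1.46) and in replicate 2 alone (1.11 to 1.56). The single longest gap differed more from the formula on V than on X: that of V, 359.86 kb, stood beside 175.7 kb from the formula, and that of X, 210.4 kb, beside 168.6 kb. For gaps of 100 kb or more, 40 were counted on V where the formula gave 13.1, 17 on IV beside 5.26, 11 on II beside 2.34, 6 on I beside 1.70, 2 on III beside 0.184 and 19 on X beside 10.2. III had the largest of these ratios and X the smallest, at 1.85.

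These ratios depend on close pairs of intervals. When intervals under 1000 bp apart were joined as well, the 444 long gaps stayed as they were, but 4817 intervals were left and the formula rose to 418.0, a ratio of 1.06. For V the ratio then fell to 0.971, below 1, and for III to 1.36. The share of the span still exceeded the formula, with 53.6% beside 43.6% on V, 46.0% beside 40.6% on X and 14.6% beside 10.1% on III.

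**Figure D2:**
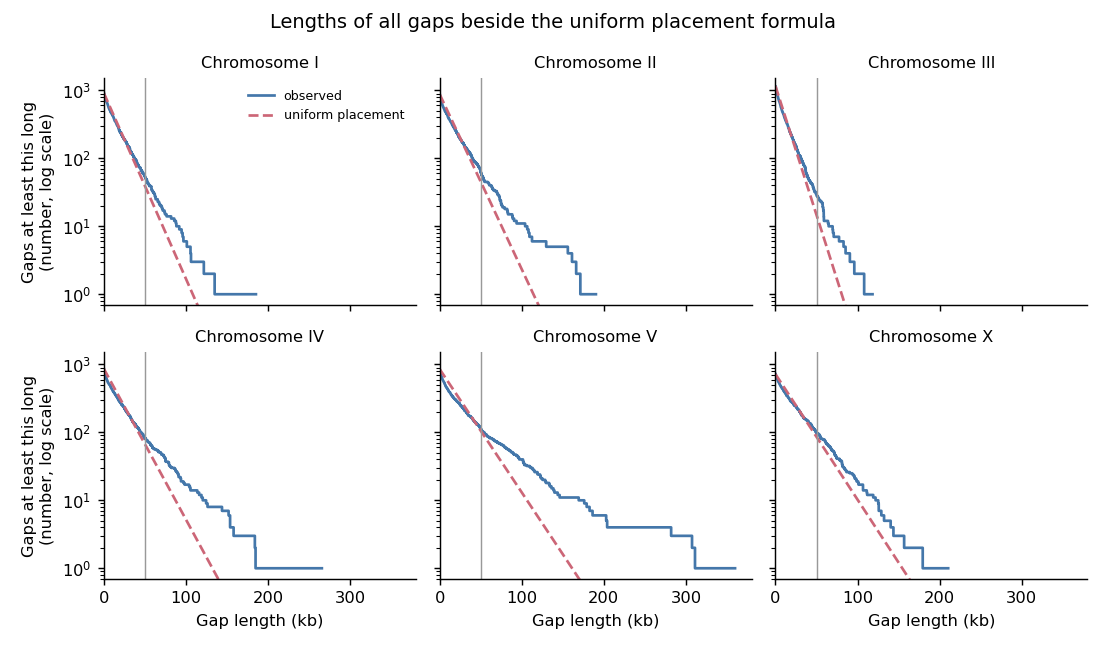
For each chromosome, the solid line gives the number of gaps at least as long as the value on the x axis (kb), the dashed line gives the number from the uniform placement formula, and the y axis is on a log scale. The solid lines run above the dashed ones to the right of the threshold at 50 kb, and on V the observed line reaches 359.86 kb.

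Each span was cut into 3 equal parts, and the outer parts are called arms and the middle part centre. Long gaps took more of the arms of the autosomes than of their centres. On the autosomes 39.2% of the arm sequence and 27.2% of the centre lay in long gaps. By midpoint, 95 of 345 autosomal long gaps were in the centre (27.5%, exact Clopper-Pearson 95% interval 22.9 to 32.6, which covers counting error over gaps only), beside 36.8% of the autosomal joined intervals. Of all gaps between intervals, 5.51% were long in the autosomal centres and 8.45% in the arms. The autosomal centres had 62.9 joined intervals per Mb and the arms 53.9. Gaps and intervals are the same measurement, so these shares are a description and no test of position.

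The arms and centres of single chromosomes were not alike. Chromosome I had 10 long gaps in its centre and 44 in its arms, and chromosome III had 5 and 25. In sequence, 13.4% of the centre of I and 6.90% of the centre of III lay in long gaps, beside 32.0% and 18.4% of their arms. On IV the shares were 32.2% and 44.5%, and on V 44.2% and 58.3%. Chromosome II was nearly even, at 30.4% and 33.1%, with a low right arm (24.5%) and a high left arm (41.8%). Chromosome V had the opposite tilt, with 52.7% of its left arm and 63.8% of its right arm in long gaps, and IV had 39.8% and 49.3%.

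X ran the other way. Its centre had 38 long gaps and 51.2% of its sequence in them, and its arms had 61 and 43.4%. The centre thus held 38.4% of the long gaps of X (exact Clopper-Pearson interval 28.8 to 48.7, counting error over gaps only). Of the joined intervals of X, 31.9% lay in the centre, a share inside that range. The centre of X had 39.9 intervals per Mb and its arms 42.5. The same intervals set the gaps, so this is a description and no test of position. Of the gaps of X, 16.5% were long in the centre and 12.5% in the arms. The centre of X also had the fewest intervals (230, where the left arm had 241 and the right arm 249). Among gaps of 100 kb or more, X had 4 in the left arm, 7 in the centre and 8 in the right arm. Gaps of that length took 13.9% of the centre of X and 14.3% of its arms, a ratio of 0.970, but 1.13 in the combined list, 1.27 in replicate 1 and 1.30 in replicate 2 taken alone.

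With each span cut into 10 equal sections, the share of a section in long gaps ranged from 0 to 77.6%. The highest was section 9 of V, with 34 intervals in all, followed by section 10 of IV (73.0%, 59 intervals) and section 10 of V (66.7%). On II, section 2 stood out with 63.1% and 39 intervals. No base of a long gap fell in section 7 of I, section 8 of II or section 4 of III, which held 135, 114 and 127 intervals. On X the sections stayed between 34.4% and 53.1%.

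**Figure D3:**
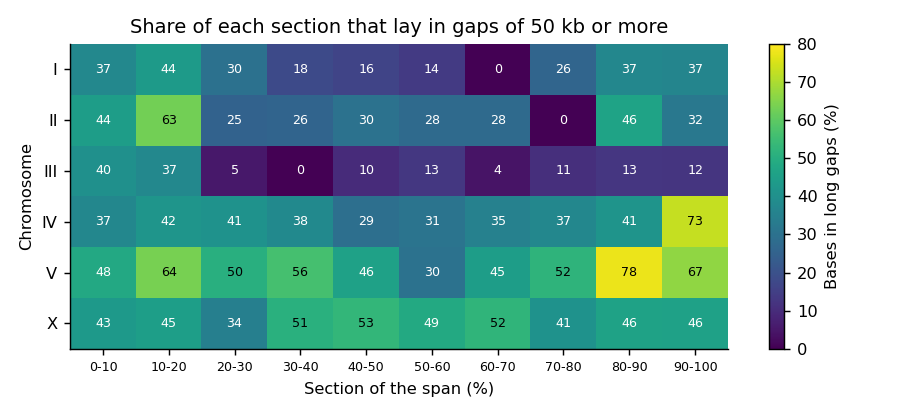
Each cell gives the percent of bases in long gaps for 1 of 10 equal sections of the span (x axis) of 1 chromosome (y axis), coloured from 0 to 80%. The highest cells are sections 9 and 10 of V, section 10 of IV (73.0%) and section 2 of V and of II (63.1%), low cells fill most of III, and X is even, from 34.4% to 53.1%.

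Over full bins of 1 Mb, 23 of 91 had at least 50% of their sequence in long gaps, and 10 of these were on V and 7 on X. The highest was V:17000001-18000000 with 83.5%, where 12 intervals lay in the whole bin. Next were V:19000001-20000000 with 76.4%, IV:16000001-17000000 with 75.2% and II:1000001-2000000 with 75.1%. At the other end, 6 bins had no base in a long gap, 4 on III, 1 on I and 1 on II. On IV, V and X no full bin was below 24.9%, so no part of these chromosomes at this scale was free of long gaps.

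The combined list set most of the gap ends. Taken alone it had 453 long gaps (8.52% of its gaps) over 37.8% of the span. The replicate 1 list alone had 618 (21.3% of its gaps) over 61.9%, and the replicate 2 list alone had 606 (18.3%) over 57.6%. These lists hold fewer peaks, 2907 and 3319 beside 5320, and fewer peaks leave longer gaps. Of the 444 members, 408 had a length within 0.1% in the combined list alone, 70 in replicate 1 alone and 90 in replicate 2 alone. In the replicate lists pooled without the combined list, 163 did. Slightly different peak edges are enough to miss this tolerance. III:1300473-1418687, bordered by intervals found in every list, measured 118.215 kb, but 118.375 kb in replicate 1 alone. Gaps holding the members were a median 1.22 times as long in replicate 1 alone and 1.12 times in replicate 2 alone. In the pooled replicate lists this ratio was 1.01. In replicate 1 alone 89 of the members were part of a gap at least 2 times as long, and in replicate 2 alone 62.

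Pooling the replicate lists without the combined list gave 571 long gaps (15.4% of gaps) over 51.8 Mb. Of these, 217 (38.0%) held no interval found in the combined list alone. The other 354 were cut by 675 intervals of the combined list that neither replicate had. Of all 571, cut or not, 145 held no member. Another 17 were cut so that 2 or more members remained. Intervals found in the combined list alone thus decided where many members begin and end.

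The order of the chromosomes was nearly the same in each list. III had the least sequence in long gaps, at 35.8% in replicate 1 and 29.1% in replicate 2. In replicate 1 V led with 71.4% and X followed with 69.4%, and in replicate 2 X led with 71.8% and V followed with 69.5%. I had 61.6% and 53.0%, II had 60.5% and 52.6%, and IV had 65.2% and 60.3% in replicates 1 and 2. I and II were close to each other in both replicate lists, and V and X changed places, so the order within these pairs cannot be read from 2 libraries.

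**Figure D4:**
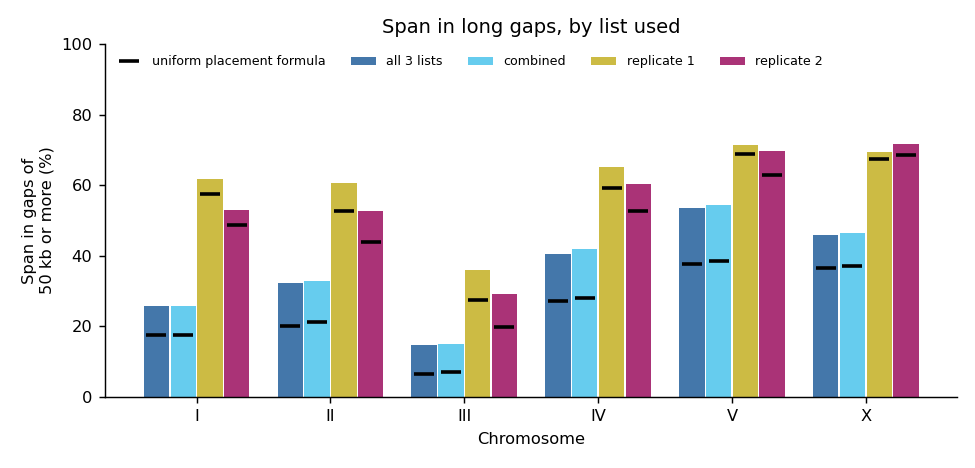
Bars give the percent of each chromosome's span in gaps of 50 kb or more, for all 3 lists pooled and for each list alone, and black dashes give the uniform placement formula for the same intervals. III is lowest in each list (14.6% pooled) and V or X highest, and the bars for single replicates are higher because those lists hold fewer peaks.

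The contrast of arms and centre was smaller in the replicate lists, and for the number of gaps its direction did not hold. Autosomal long gaps per Mb in the centre, relative to the arms, were 0.760 over the pooled lists, 1.02 in replicate 1, 0.960 in replicate 2 and 1.05 with the intervals found in both replicates. The share of autosomal centre sequence in long gaps, divided by that of the arms, was 0.694 over the pooled lists and 0.704 in the combined list. It was 0.917 in replicate 1 (56.9% and 62.0%) and 0.874 in replicate 2 (49.9% and 57.1%). With only the joined intervals found in both replicates, it was 0.956. For gaps of 100 kb or more it was 0.518 over the pooled lists, 0.849 in replicate 1 and 0.781 in replicate 2. I and V were below 1 in each list and at both lengths, and X was above 1 in both replicates at both lengths (1.10 in each at 50 kb). The other autosomes were not uniform: II had 1.01 in replicate 1 and 0.950 in replicate 2 at 50 kb, and at 100 kb II had 1.23 and IV 1.05 in replicate 2 and III 1.01 in replicate 1.

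Because the peaks of both replicates chose the members, their gaps say nothing about whether the replicates repeat each other. Each replicate was therefore used alone to choose long gaps, and the peaks of the other were counted inside them. The 618 long gaps of replicate 1 covered 61.6 Mb, and 349 of them (56.5%) held no replicate 2 peak. The 606 long gaps of replicate 2 covered 57.4 Mb, and 435 (71.8%) held no replicate 1 peak. The long gaps of the replicates shared 52.3 Mb, which was 84.9% of the long gaps of replicate 1 and 91.1% of those of replicate 2. For comparison, long gaps took 57.6% of the whole span in replicate 2 and 61.9% in replicate 1.

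Peaks of one replicate were sparser in the long gaps of the other than in its shorter gaps, although neither kind of gap holds a peak of the replicate that chose it. In the long gaps of replicate 1 there were 403 replicate 2 peaks, or 6.55 per Mb (exact Poisson 95% interval 5.92 to 7.22, counting error over peaks only). In its gaps under 50 kb there were 422, or 11.5 per Mb (10.4 to 12.7). In the long gaps of replicate 2 there were 192 replicate 1 peaks, 3.34 per Mb (2.89 to 3.85), and in its gaps under 50 kb there were 221, 5.40 per Mb (4.71 to 6.16). The shorter gaps thus held 1.76 and 1.62 times as many peaks per Mb. The intervals do not overlap, but peaks of 1 library share their source, and 2 libraries allow no test of the spread between libraries.

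The density was lower in each longer class of gaps. For the gaps of replicate 1 it was 23.8 replicate 2 peaks per Mb in gaps under 5 kb, 17.4 from 5 to 10 kb, 11.5 from 10 to 20 kb and 10.2 from 20 to 50 kb. It was 7.30 from 50 to 100 kb and 5.92 in gaps of 100 kb or more. For the gaps of replicate 2 the same classes had 11.8, 7.54, 4.99, 4.86, 4.06 and 2.66 replicate 1 peaks per Mb. Most neighbouring classes overlapped in their Poisson intervals. For the gaps of replicate 1 those from 20 to 50 kb (9.01 to 11.5) and from 50 to 100 kb (6.33 to 8.37) did not, and for the gaps of replicate 2 those from 50 to 100 kb (3.35 to 4.88) and of 100 kb or more (2.10 to 3.32) did not.

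All 6 chromosomes had more peaks per Mb in the shorter gaps, in both directions, but many of the differences were within counting error. The Poisson intervals of long and shorter gaps overlapped on I, III and X for gaps of replicate 1. For gaps of replicate 2 they overlapped on every chromosome except V. For gaps of replicate 1 the ratio of shorter to long ran from 1.23 on III to 1.80 on IV, with 1.64 on X. For gaps of replicate 2 it ran from 1.03 on II to 2.29 on V. On II, with 4.99 replicate 1 peaks per Mb in long gaps and 5.13 in shorter ones, there was next to no difference in that direction.

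**Figure D5:**
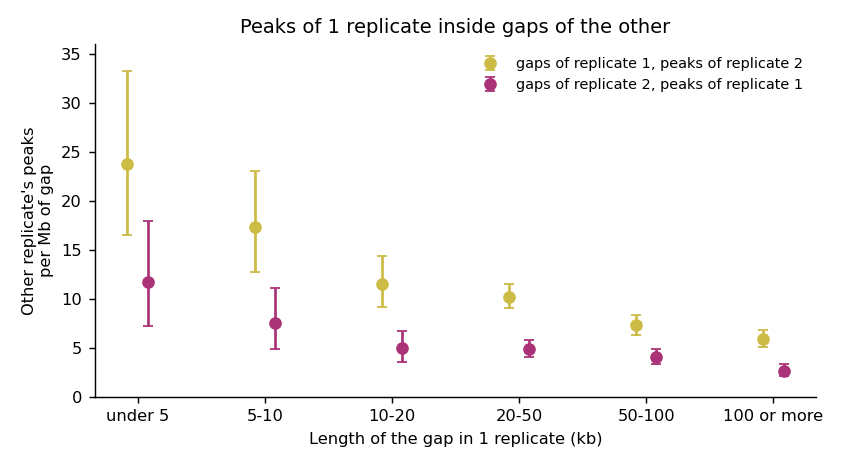
Points give the peaks per Mb of 1 replicate that lay inside gaps of the other, by the length of the gap (x axis, kb), with exact Poisson 95% intervals as error bars, which cover counting error only. Both series fall from the shortest gaps to gaps of 100 kb or more, from 23.8 to 5.92 and from 11.8 to 2.66 peaks per Mb.

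The peaks that did fall into the other replicate's long gaps were weak. The replicate 2 peaks in long gaps of replicate 1 had a median −log10 q of 4.39 and none was above 9.07. The replicate 1 peaks in long gaps of replicate 2 had a median of 4.36 and none was above 8.80. Peaks in the shorter gaps were about as weak, with medians of 4.54 and 4.41, and all of these lack a partner in the replicate that chose the gaps. The longest gap of replicate 1, V:16966113-17498018 with 531.9 kb, held 2 replicate 2 peaks, the stronger with a q of 9.16e-07. The gap of 392.2 kb at V:2803650-3195837 in replicate 1 held 1 replicate 2 peak with a q of 1.65e-05. The longest 5 gaps of replicate 2, from 317.7 to 391.4 kb, held no replicate 1 peak.

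X stood on different sides of the autosomes in the 2 directions, but for gaps of replicate 2 the Poisson intervals overlapped. Its long gaps in replicate 1 held 43 replicate 2 peaks, 3.59 per Mb (2.59 to 4.83), where those of the autosomes held 7.26 per Mb (6.53 to 8.05). The other way round, the long gaps of X in replicate 2 held 51 replicate 1 peaks, 4.11 per Mb (3.06 to 5.40), and those of the autosomes 3.13 per Mb (2.64 to 3.70). X had 392 peaks in replicate 1 and 382 in replicate 2, although the replicate 2 list is the longer of the lists.

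The intervals that border long gaps looked much like the others. There were 842 of them, and 43.7% were found in all 3 lists and 31.5% in the combined list alone, where among the 4564 intervals with no long gap beside them these shares were 46.0% and 31.6%. The median −log10 of the smallest q was 7.72 at the borders and 8.14 elsewhere, and the median widths were 357.5 and 367 bp. By chromosome, the border intervals of X had a median of 6.92 beside 7.38 for the rest of X, and those of V 7.41 beside 8.12. On II the order was the other way, 8.34 beside 7.96. These values come from the same peak calls as the gaps, and are a description.

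Some strong intervals stood at the edge of long gaps. Of the border intervals, 28 (3.33%) had a −log10 q of 50 or more, and 197 of the others (4.32%). The strongest border interval reached 211.9. The last gap of chromosome I, I:14971994-15063994 (92.0 kb), ended at an interval that was strong in both replicates, with q-values of 5.34e-208 and 6.93e-165. That interval overlaps no row of the combined list, so this gap is absent when the combined list is used alone. Very strong intervals of both replicates that overlapped no combined row also lay on II, III and IV. With no untagged strain among the samples, whether NFYA-1 binding gave the signal at the right end of I was not tested.

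Intervals with a long gap on each side were few. There were 46, of which 15 (32.6%) were found in all 3 lists, and their median −log10 q was 6.55. Over all intervals these values were 45.6% and 8.05. None of the 46 reached 50, where 4.16% of all intervals did, and 46 are too few to read much from this. The strongest was V:20000984-20001825, between gaps of 96.4 and 55.1 kb, with a q of 2.78e-36 in the combined list, 1.99e-18 in replicate 1 and 7.84e-18 in replicate 2. Next was V:16131878-16132260, between 89.4 and 122.9 kb, with a combined q of 1.36e-25. Both replicates held these, so single intervals found in both replicates occur inside otherwise empty stretches.

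Most long gaps stood alone in the row of gaps. Of the 444, 358 had a shorter gap on each side or the end of the span, and 86 (19.4%) formed 40 runs of 2 or 3 long gaps, each parted by 1 interval. A long gap was followed by another in 46 of 443 cases (10.4%), where after a shorter gap the next was long in 397 of 4951 cases (8.02%). These values pool chromosomes whose share of long gaps runs from 2.59% on III to 13.8% on X. The difference between them therefore does not show that long gaps follow each other within a chromosome. By chromosome, another long gap followed in 4 of 30 cases on III (13.3%), 5 of 53 on I (9.43%) and 8 of 63 on II (12.7%). Of all gaps on III, I and II, 2.59%, 5.87% and 7.15% were long, so these shares were higher but rest on few pairs. On IV, V and X the share after a long gap was lower than the share over all gaps. It was 6.02% beside 9.57% on IV, 9.57% beside 13.5% on V and 13.1% beside 13.8% on X. Across all 5394 neighbouring pairs of gaps, the lengths had a Spearman's rho of 0.136. This is a description across gaps that share intervals, and it too pools chromosomes with different gap lengths.

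The longest runs were on V and II. The run V:2803692-3193140 had 2 long gaps over 389.4 kb with 1 interval between them. The run II:1437885-1820007 had 3 long gaps over 382.1 kb. In replicate 1 alone it lay in 1 gap of 406.6 kb, with 2 weak replicate 2 peaks inside, the stronger with a q of 9.58e-06. Another run, V:16042490-16307780, held 3 long gaps over 265.3 kb.

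The surroundings of long gaps were nearly as rich in intervals as those of other gaps on most chromosomes. Within 250 kb on either side of a long gap the median density was 64 intervals per Mb on I, where it was 66 beside the other gaps of I. The same medians were 54 and 56 on IV, 48 and 50 on V and 45.4 and 46 on X. The difference was larger on II, with 58 and 66, and on III, with 70 and 96. On III the long gaps thus lay in the sparser part of the chromosome, and 15 of its 30 were in sections 1 and 2 of the 10 above. On IV, V and X these medians differed little, but sparse parts of IV and V also held many long gaps. Section 9 of V had 34 intervals and 9 long gaps, and section 10 of IV had 59 intervals and 13 long gaps.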

How the data were processed

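Per the file headers, peaks were called on WormBase build WS180, and the source column names PeakSeq. How reads were aligned, what threshold and input were used and how the replicates were combined is not given in the sources used here. The deposited value is a q-value per peak, here shown as −log10 q. Peak starts and ends are 1-based. Rows of the 3 lists were pooled and joined where they overlapped by at least 1 bp. Gaps of 50000 bp or more between neighbouring joined intervals were kept, and 3 equal parts of the span served as arms and centre because chromosome lengths of WS180 were not used here. The uniform placement formula uses the number of intervals and the uncovered length of each chromosome. A peak counted as inside a gap when it lay wholly in it. The rule was to name the 10 longest gaps, the longest of each chromosome and 3 gaps on either side of the threshold; bins, sections, runs, intervals between long gaps and the right end of I were named after their values were seen. The members and all measures were chosen with earlier results of these data known. The functions were tested on simulated data. Sequence and genes of WS180 were not used here. Tools were SciPy 1.17.1, pandas 2.3.3, NumPy 2.4.6 and matplotlib 3.10.9 under Python 3.11.15.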

Additional observations from a re-analysis of the deposited data

How the results depend on the processing

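Of 82 alternative values, 50 kept their direction and stayed within the counting interval of the pooled value, or for counts within 1.5 times. The pooled lists gave 444 long gaps, 37.1% of the span, 0.760 autosomal long gaps per Mb in the centre for each in the arms, 0.694 for the share of bases, and 1.23 times the formula. Leaving out the replicate 1 list, then the replicate 2 list, gave 446 and 451 gaps, and 37.3 and 37.6% of the span. The same settings gave 0.765 and 0.764 for the centre, 0.699 and 0.698 for bases, and 1.231 and 1.229 times the formula. The combined list was kept in these settings, and by itself it gave 453 gaps over 37.8% of the span. Of the 444 members, 408 had nearly the same length in it alone. These values therefore had little room to change, and do not show what removing a library does. Numbers of gaps were 192 at 75000 bp and 95 at 100000 bp. A threshold of 3 mean gaps of the chromosome, chosen after seeing the data like the shares of bases, gave 182 gaps in replicate 1 and 220 in replicate 2. The share of the span was 47.0% at 40000 bp, 21.8% at 75000 bp and 13.5% at 100000 bp. It was 61.9% in replicate 1 alone, 57.6% in replicate 2 alone, 52.0% in both without the combined list, 65.0% in the stronger 50% of each list, 52.5% with intervals in at least 2 lists and 68.4% with those in both replicates, as fewer peaks entered. The ratio to the formula turned below 1 in replicate 1 alone (0.952), in the stronger 50% (0.940) and with intervals in both replicates (0.951), where 50000 bp is a smaller multiple of the mean gap. It was 1.001 in replicate 2 alone, 1.02 without the combined list, 1.01 with intervals in at least 2 lists and 1.06 with intervals under 1000 bp apart joined. It was 1.11 at 40000 bp, 1.81 at 75000 bp and 2.89 at 100000 bp. At 3 mean gaps it was 1.44 pooled, 1.42 in the combined list, 1.26 in replicate 1 and 1.34 in replicate 2. The number of gaps per Mb in the centre relative to the arms turned above 1 in replicate 1 alone (1.02) and with intervals in both replicates (1.05), and was 0.970 in the stronger 50%; the cause was not tested. The share of bases stayed below 1, at 0.917 in replicate 1 alone, 0.914 in the stronger 50%, 0.956 with intervals in both replicates and 0.518 at 100000 bp. No paired analysis was possible because gap counts come from no test and the input libraries, which share the replicate numbers, have no values here. Depth is unknown, so a gap cannot be read as absence of binding.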
